A study of Mus musculus with 9 samples.

Results

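Tbp, Nono and Rpl13a were followed across mouse fetal liver, adult liver and liver cancer as 3 of the 15 probes on the array that carry a RefSeq accession, out of 60915 probes in all. They were chosen by accession: NM_013684.3 for Tbp, NM_023144.2 for Nono and NM_009438.4 for Rpl13a, and each probe is printed 20 times on every array. The study profiled protein-coding transcripts and lncRNAs (long RNAs that encode no protein) on 1-colour arrays, 1 array per sample, in search of transcripts that embryonic liver and liver tumours have in common. Each of the 3 groups has 3 samples: whole liver from 17.5-day embryos, liver from male mice 2 months old, and tumour tissue from male mice 1 year old. A course of diethylnitrosamine (DEN), a carcinogen that liver enzymes activate, had produced the tumours. A tumour sample therefore differs from an adult one in age, in DEN exposure and in being a tumour, and these cannot be told apart. The strain of the mice, the dose of DEN and the sex of the embryos are not given in the sources used here. Replicates are called independent, but no animal, litter or pool is named, so a p-value here weighs the spread among the samples at hand, which may be technical.

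The 3 genes stand for separate steps on the way from gene to protein. Tbp encodes the TATA-binding protein, a core subunit of the factor TFIID that marks where RNA polymerase II begins, and the protein also serves RNA polymerases I and III. Nono encodes a nuclear protein of the DBHS family, which binds RNA and DNA, takes part in splicing, transcription and DNA repair, and is a building block of paraspeckles, the nuclear bodies assembled on the lncRNA Neat1. Rpl13a encodes a protein of the large ribosomal subunit, and ribosomal protein mRNAs are known to be abundant in growing cells. All 3 are in wide use as reference genes for PCR. Fetal liver at this stage is a site of blood formation as well as a developing metabolic organ, so its RNA comes from blood cell precursors and hepatocytes together. In whole-tissue RNA, fewer cells of a type and less RNA per cell cannot be told apart.

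The DNA just before the start of each gene is shown as a description. Over the arrays, the profiles of Tbp and Nono lay nearer to each other than to that of Rpl13a, as described further on. Any link between these profiles and the DNA letters was not tested. Sequences are from RefSeq on build GRCm38.p6, read 5′ to 3′ on the strand of the gene, and end at the last base before the gene in the RefSeq gene table. All 3 genes were found in the promoter table, where the window of Nono belongs to a start that lies inside the gene, so its last 91 bases are left out. Capitals mark exact matches, on either strand, to 4 short motifs: TATAAA (the TATA box, which TBP itself binds), CCAAT (the CCAAT box), GGGCGG (the GC box) and CCGGAA (the core of ETS factor sites). The windows are chr17:15499638-15499887 on the forward strand for Tbp, chrX:101429401-101429559 on the forward strand for Nono and chr7:45128746-45128995 on the reverse strand for Rpl13a.
Tbp: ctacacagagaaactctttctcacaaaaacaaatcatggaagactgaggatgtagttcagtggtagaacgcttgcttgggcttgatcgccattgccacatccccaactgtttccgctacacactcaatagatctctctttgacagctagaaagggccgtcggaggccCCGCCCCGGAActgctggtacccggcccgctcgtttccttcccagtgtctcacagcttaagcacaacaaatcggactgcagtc
Nono: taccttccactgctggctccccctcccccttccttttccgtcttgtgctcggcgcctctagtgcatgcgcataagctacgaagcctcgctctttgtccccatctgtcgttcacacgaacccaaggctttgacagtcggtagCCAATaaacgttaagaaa
Rpl13a: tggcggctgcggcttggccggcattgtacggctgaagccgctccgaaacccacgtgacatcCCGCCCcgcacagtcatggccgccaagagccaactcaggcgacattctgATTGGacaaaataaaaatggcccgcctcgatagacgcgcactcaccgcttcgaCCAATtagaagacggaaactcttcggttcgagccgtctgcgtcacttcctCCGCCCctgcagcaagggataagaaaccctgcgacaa
None of the 3 windows, of 250 bases for Tbp and Rpl13a and 159 for Nono, holds TATAAA on either strand. The motif is present in 12.4% of the 32851 windows of 250 bases in the promoter table. Over the last 159 bases before the start in that table the share is 7.95%. The window of Nono ends instead at the start in the gene table, so the shares over 159 bases match it in length but not in place. Tbp holds a GC box at 83 to 78 bases before the start that shares its last base with an ETS core at 78 to 73 bases. Nono holds a CCAAT box at 18 to 14 bases. Rpl13a holds a CCAAT box in each orientation, at 140 to 136 and 87 to 83 bases, and a GC box at 189 to 184 and at 37 to 32 bases. Of all windows of 250 bases, 33.8% hold a CCAAT box, 32.7% a GC box and 12% an ETS core, and over 159 bases the shares are 25.4%, 29.2% and 9.54%. Within these windows Nono and Tbp thus share none of the 4 motifs, and Rpl13a shares the CCAAT box with Nono and the GC box with Tbp. The window of Nono is shorter, and the 91 bases left out there were not searched. The windows of Tbp and Rpl13a are 52% and 58.8% G and C, against a median of 52.4% over the table at that length, and the shorter window of Nono is 54.1%. Matches describe letters alone, and no binding was measured.

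The arrays came from 2 scans, per the file headers. All arrays of fetal and adult liver and 1 tumour array (replicate 1) share the first, and both remaining tumour arrays (replicates 2 and 3) the second. A fit within the first scan therefore has 1 tumour array, and its p-values for liver cancer take their spread from fetal and adult arrays and assume that tumours vary as little as these. Over all 3 tumours the SD was 0.73 log2 for Tbp, 0.98 for Nono and 0.50 for Rpl13a, against 0.03 to 0.28 within fetal and within adult liver. Probes well above background made up 41% to 54.9% of each array in the first scan, against 69.4% and 68% for the tumours of the second scan. The 75th percentile of an array, to which all levels here are scaled, stood at a signal of 131 to 188 on fetal arrays, 91.6 to 110 on adult arrays, 87.8 on liver cancer replicate 1, and 409 and 355 on replicates 2 and 3. Negative control spots had a median signal of 3.86 to 5.24 on every array. Of the 28 marker genes listed to check the tissue, only Tfrc, the transferrin receptor of red cell precursors and other iron-importing cells, had a named probe, so the labelled tissue could not be checked against albumin or other hepatocyte genes.

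The 3 genes were measured well above background throughout. Of 540 member spots, 44 carried an outlier mark and were left out, and all 496 others were well above background. The lowest array mean was a processed signal of 482, for Tbp on liver cancer replicate 1, where the negative controls had a median of 3.86. The SD over the spots of 1 probe on 1 array had a median of 0.0922 log2 and a maximum of 0.146. This spread is among repeat spots within an array and holds no variation between arrays. It is therefore not the spread against which the differences between groups described next are weighed. Those differences are limited by the number of arrays and by the choice of scaling.

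**Figure D1:**
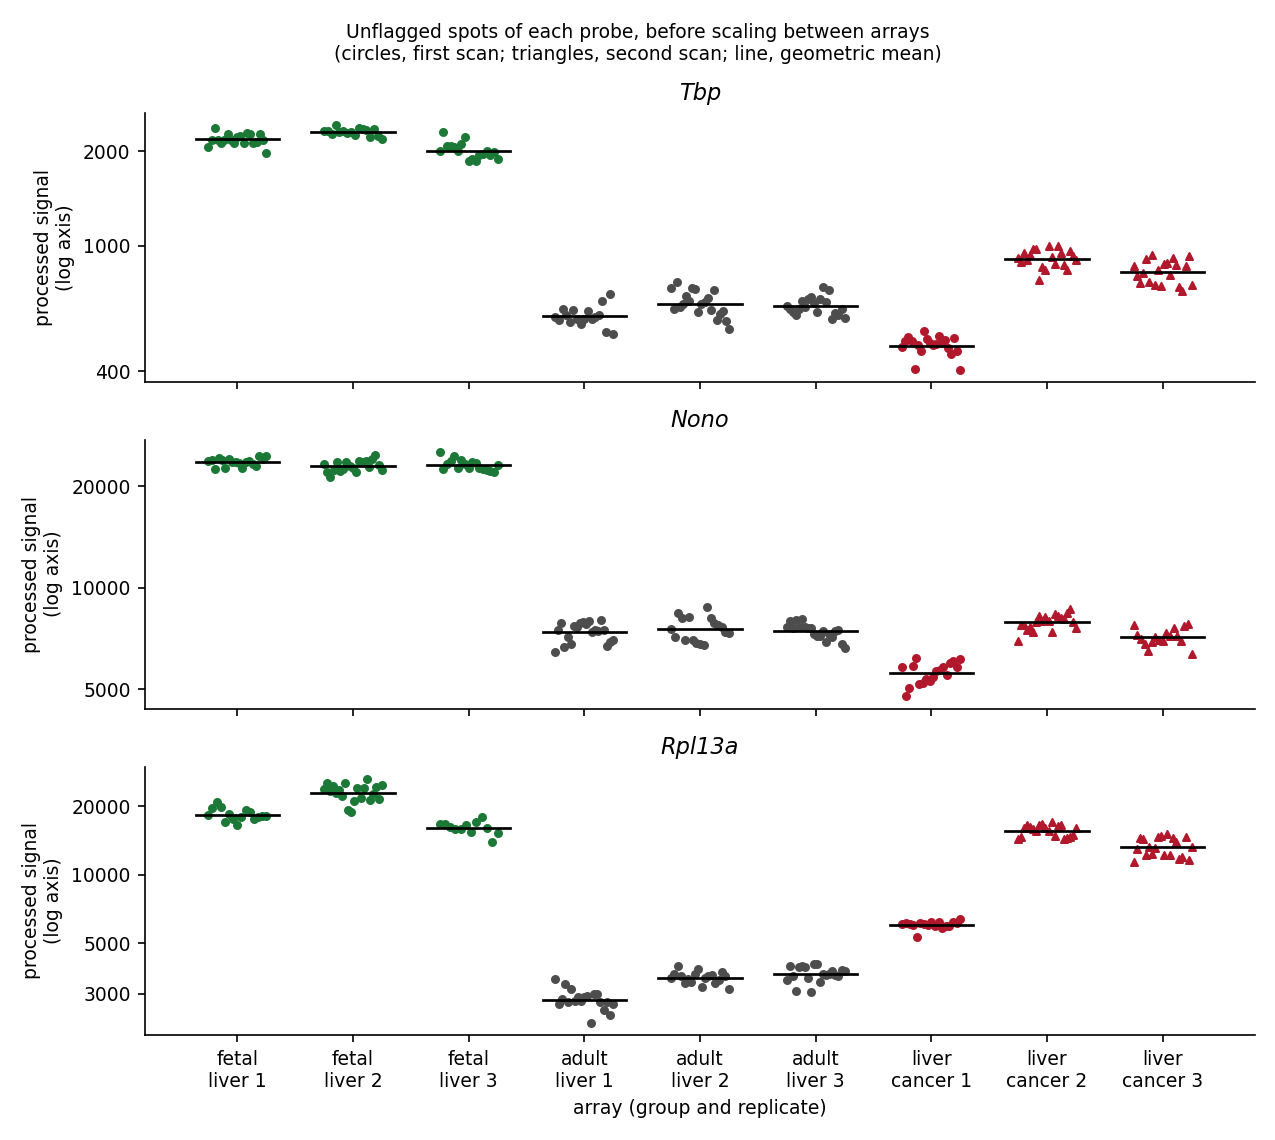
Processed signal (log axis) of every unmarked spot of the Tbp, Nono and Rpl13a probes on the 9 arrays before any scaling, with the geometric mean of each array as a line; circles are arrays of the first scan and triangles those of the second. Fetal spots lie above all adult spots for each gene, and the Rpl13a spots of liver cancer replicates 2 and 3 lie far above those of adult liver while their Nono spots overlap the adult ones.

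Tbp was highest in fetal liver. In log2 units relative to the 75th percentile of the array, fetal arrays read 3.90, 3.62 and 3.93, adult arrays 2.70, 2.64 and 2.55, and the tumours 2.46, 1.16 and 1.21 (replicates 1 to 3). No group overlapped another, but liver cancer replicate 1 lay only 0.093 below the lowest adult array while the other tumours lay more than 1 log2 unit lower. The lowest of 52 fetal spots stood at 3.54 and the highest of 57 adult spots at 2.94. These spots repeat 1 probe on 3 arrays per group, so they describe the measurement and are not replicates of the tissue.

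Tbp rose 2.28-fold in fetal liver over adult liver (log2 difference 1.19 ± 0.33 (SE, n = 3 per group), limma adjusted p = 0.0155), a direction that turned only when arrays were scaled to the median of the other 12 named probes (-0.53). A call here means an adjusted p below 0.05 together with a change of at least 2-fold. Across all 34103 tested probes 21.2% were called higher in fetal liver, and 2 of the 3 genes, Tbp and Rpl13a, were among them. On 33.5% of tested probes every fetal array lay above every adult array, as it did for all 3 genes. The first scan holds the same fetal and adult arrays, so the difference there is the same by construction, and without the spread of the second-scan tumours its limma adjusted p was 0.000449. The call was lost without fetal liver replicate 1 (1.15, limma adjusted p = 0.05) or fetal liver replicate 3 (1.13, limma adjusted p = 0.0519). It was lost too when arrays were scaled to their median (1.13) or to the mean of the other 12 named probes (0.85, under the minimum fold).

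Against fetal liver, Tbp fell in liver cancer by 2.21 on the log2 scale, or 4.62-fold (SE 0.33, limma adjusted p = 0.000458). Of all tested probes 22% were called lower in this comparison, and all 3 genes were among them. On 29% of tested probes all tumours lay below all fetal arrays, again as for the 3 genes. Liver cancer replicate 1, the tumour of the first scan, lay at -1.36 from the fetal mean, replicates 2 and 3 lay at -2.66 and -2.60, and the fit within the first scan, with replicate 1 as its only tumour, gave a limma adjusted p of 0.00165. Tbp was thus lower in each tumour than in each fetal liver, and it was called under all 26 alternatives tried, from -2.63 to -1.27.

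Against adult liver, Tbp was at -1.02 ± 0.33 log2 in liver cancer (2.03-fold lower, limma adjusted p = 0.0449). The call rested on replicates 2 and 3, the tumours of the second scan, where tumour and scan cannot be told apart. Of all tested probes 12.5% were called lower in this comparison, with Tbp and Nono among them. All tumours lay below all adult arrays on 21.1% of tested probes, and on Tbp and Nono. Liver cancer replicate 1 lay at only -0.17 from the adult mean, without a call (limma adjusted p = 0.58), against -1.47 and -1.42 for replicates 2 and 3. On the processed signals before scaling, Tbp stood at 597, 654 and 643 in adult liver and at 482, 912 and 825 in liver cancer. The unscaled signal of replicates 2 and 3 was therefore 1.44 and 1.31 times the adult geometric mean, on arrays whose 75th percentile was more than 3 times that of any adult array, and with no scaling the difference turned to 0.18. The call was lost on leaving out any 1 array other than liver cancer replicate 1, without which the difference was -1.44 and passed. Scan moves with the level, and its part in the result was not tested.

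Nono followed the same order. On the same scale its fetal levels were 7.34, 6.93 and 7.46, its adult levels 6.33, 6.17 and 6.08, and its tumour levels 5.99, 4.27 and 4.33. The groups lay apart, with liver cancer replicate 1 again within 0.0847 of the lowest adult array. Fetal replicate 2 was the lowest fetal array for Nono, as it was for Tbp.

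Between fetal and adult liver Nono differed by 1.05 ± 0.43 log2 (2.07-fold, limma adjusted p = 0.0692), which missed the threshold over all arrays. The fit over all arrays takes its spread from the tumours as well, where the SD of Nono was 0.98 log2, against 0.28 in fetal and 0.13 in adult liver. Within the first scan the same difference had an SE of 0.18 and was called (limma adjusted p = 0.00243), as it was in the fit of fetal and adult arrays alone, which holds nearly the same arrays. It was also called without liver cancer replicate 1 (limma adjusted p = 0.00107). Its sign turned, to -0.67, when arrays were scaled to the median of the other 12 named probes.

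Nono fell in liver cancer relative to fetal liver by 2.38 on the log2 scale, or 5.21-fold (SE 0.43, limma adjusted p = 0.0013). The first scan alone gave -1.25 with liver cancer replicate 1 (limma adjusted p = 0.0069, on a single tumour), and all 26 alternatives made the call, from -2.94 to -1.25. Without scaling, its processed signals were 23600.5, 22967 and 23124 in fetal liver against 5596, 7900.4 and 7143 in liver cancer. Fetal liver was higher on each array also in these unscaled signals.

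Relative to adult liver, Nono was at -1.33 ± 0.43 log2 in liver cancer (2.51-fold lower, limma adjusted p = 0.0422). Replicate 1 lay at -0.20 from the adult mean, with a limma adjusted p of 0.625 in the fit within the first scan, and replicates 2 and 3 lay at -1.92 and -1.86. Unscaled, the adult signals of Nono were 7382, 7556 and 7431, so that replicates 2 and 3 stood at 1.06 and 0.958 times the adult geometric mean and replicate 1 at 0.751 times. The unscaled signals of Nono in adult liver and in the second scan thus overlapped, and with no scaling the difference was -0.13, without a call. Leaving out any 1 array other than liver cancer replicate 1 ended the call (-1.38 to -1.03), and leaving out replicate 1 kept it at -1.89.

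Rpl13a had another order, with adult liver lowest. The adult arrays read 4.95, 5.06 and 5.05, the tumours 6.10, 5.25 and 5.21, and the fetal arrays 6.98, 6.93 and 6.94. The 3 fetal arrays agreed to within 0.046 log2, and each tumour lay between the fetal and the adult arrays, with replicate 1 nearer to fetal liver than the other tumours were. Rpl13a has many near-identical processed copies in the genome, and signal shared with them was not separated, so its values are uncertain in that respect.

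Rpl13a rose 3.80-fold in fetal liver over adult liver (1.93 ± 0.25 log2, limma adjusted p = 0.000195). Of tested probes, 10.8% had a larger difference in this direction than Rpl13a, 19.7% a larger one than Tbp and 22% a larger one than Nono. The lowest of its 47 fetal spots, at 6.65, lay above the highest of its 57 adult spots, at 5.24, though spots of the same arrays are not replicates of the tissue. The call was kept on leaving out each array in turn, and was lost only with scaling to the median of the other 12 named probes (0.20). On that scale the median of all tested probes was -1.74, and Rpl13a lay 1.95 above it, Tbp 1.21 and Nono 1.07. Scaling by 1 value per array moves all probes alike, so these distances are the same by construction and are no further evidence. Tfrc, the 1 named gene of the 28 markers, was also higher in fetal liver, at a mean level of 9.74 against 6.75 in adult liver and 8.04 in liver cancer, and the part of blood cell precursors in the levels of the 3 genes was not tested.

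Liver cancer and adult liver differed in Rpl13a by 0.50 ± 0.25 log2 over all arrays, which missed the threshold (limma adjusted p = 0.161), with a 95% confidence interval from -0.07 to 1.07. Of all tested probes 11.6% were called higher in this comparison, and on 21.5% all tumours lay above all adult arrays, as on Rpl13a. In contrast to Tbp and Nono, the first scan gave the larger difference: replicate 1 lay 1.08 above the adult mean (limma adjusted p = 0.00436, on this single tumour and with the spread of fetal and adult arrays), while replicates 2 and 3 lay 0.23 and 0.19 above it. Rpl13a was also called with normexp background correction (1.10) and with no scaling (1.70), and was at -0.28 when scaled to the median of the other 12 named probes. With no scaling, however, the median of all tested probes was itself 1.21, and 92.9% of calls were higher. Before scaling, its signals were 2822, 3519 and 3655 in adult liver and 6016, 15616 and 13158 in liver cancer. Each tumour exceeded each adult liver on that unscaled signal, at 1.82, 4.72 and 3.97 times the adult geometric mean for replicates 1 to 3. The 75th percentile of these tumour arrays stood at 87.8, 409 and 355, against 91.6 to 110 on adult arrays.

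Against fetal liver, Rpl13a fell in liver cancer by 1.43 on the log2 scale, or 2.69-fold (SE 0.25, limma adjusted p = 0.00121). Within the first scan it lay at -0.85 (limma adjusted p = 0.00471), past the p threshold but under the minimum fold. Its call was also lost with normexp (-0.79), with no scaling (-0.82) and with the median of the other 12 named probes (-0.48). In all, 5 of the 26 alternatives left Rpl13a without a call in this comparison, while Tbp and Nono were called under each of them.

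**Figure D2:**
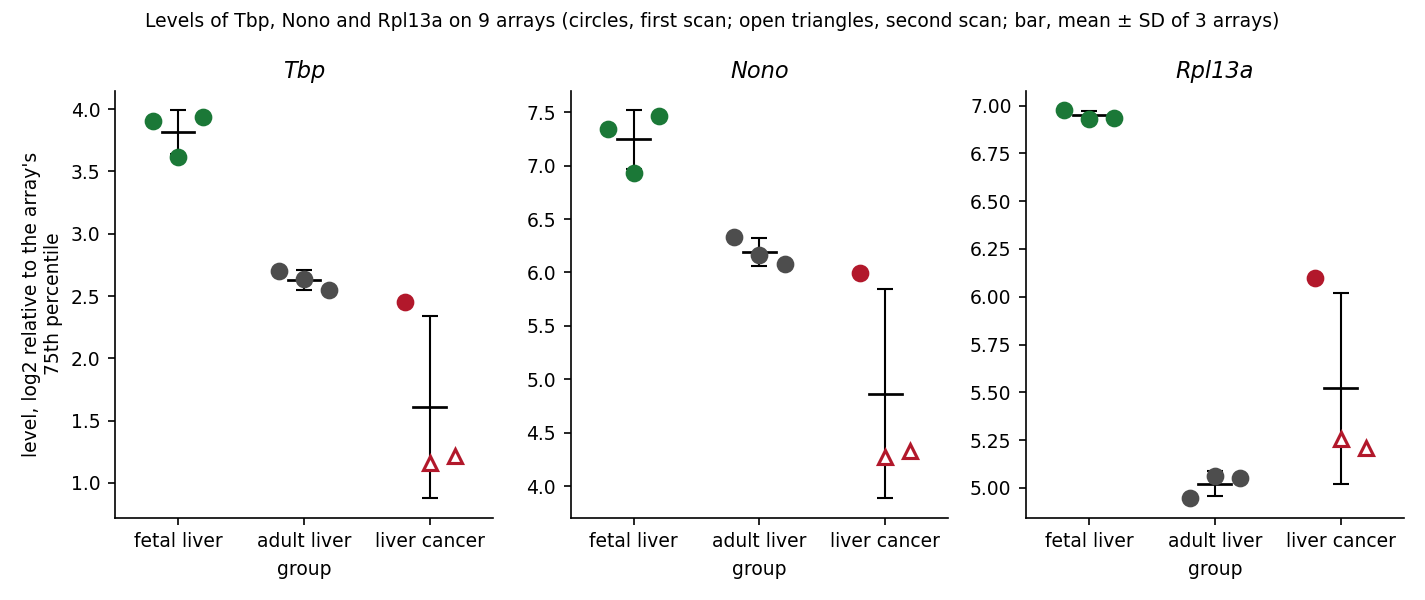
Levels of Tbp, Nono and Rpl13a on each array (y axis, log2 relative to the 75th percentile of the array) by group, with the mean and SD of 3 arrays; circles are the first scan and open triangles the second. Fetal arrays are highest for all 3 genes (on this scale; with scaling to the median of the other 12 named probes Tbp and Nono turn to -0.53 and -0.67 against adult liver), adult arrays are lowest for Rpl13a, and the tumours of the second scan lie well below the tumour of the first.

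**Figure D3:**
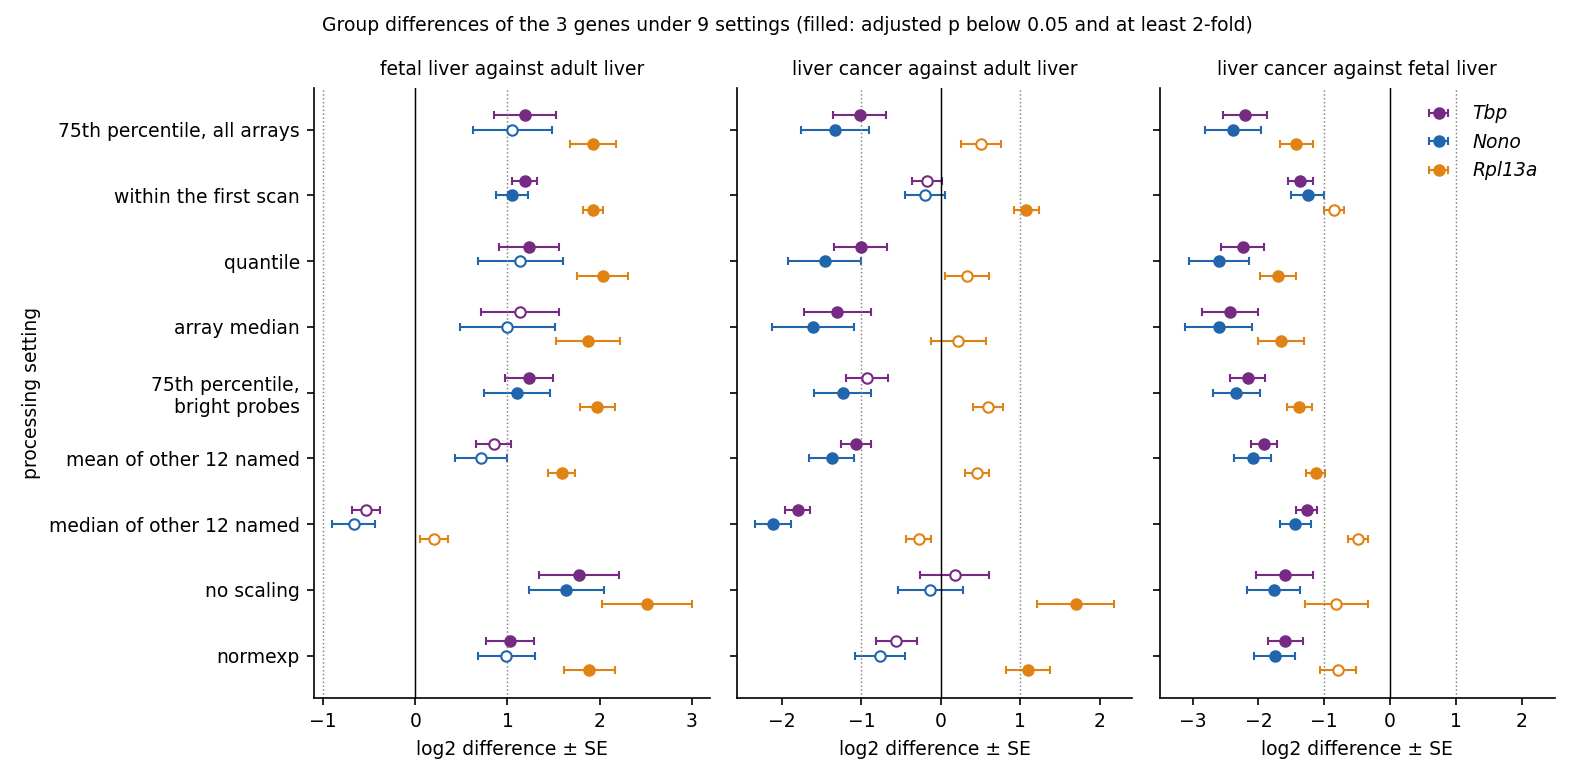
Difference between groups (x axis, log2 ± SE) for each gene in each comparison under 9 settings of scan, scaling and background correction; filled points are calls, and dotted lines mark 2-fold. Between fetal and adult liver Rpl13a is called under each setting but the median of the other 12 named probes, where it drops to 0.20 and Tbp and Nono turn negative; Tbp and Nono against adult liver move from near 0 within the first scan to below -1 over all arrays.

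Because all 3 probes lie on the same array, the difference between 2 of them does not depend on how arrays are scaled. The size of such a difference is not a ratio of transcripts, since probes differ in brightness, but its change between groups shows unequal change. Rpl13a relative to Tbp stood at 2.24, 2.43 and 2.51 log2 on adult arrays, 3.07, 3.32 and 3.00 on fetal arrays, and 3.64, 4.10 and 4.00 on tumour arrays. The 3 groups were apart on every array, in the order adult liver, fetal liver, liver cancer.

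Rpl13a thus gained 0.74 log2 on Tbp in fetal liver and 1.52 in liver cancer, both against adult liver. An exact permutation test for any difference among the 3 groups used all 1680 assignments of arrays to groups. The exact permutation test gave an adjusted p of 0.00536 over the 3 pairs (unadjusted p = 0.00357, the smallest it can give). Neither gain, nor the order of the groups, was tested by itself. Relative to Nono, Rpl13a gained 0.87 in fetal liver and 1.83 in liver cancer, with the same p-values from the exact permutation test. Liver cancer replicate 1, the tumour of the first scan, showed gains of 1.25 and 1.28 and lay above each fetal array in both pairs. Within the first scan the exact permutation test gave an adjusted p of 0.0429 for both, with 1 tumour array and so no spread among tumours. Scaling leaves these differences as they are, and both passed under the 14 alternatives that could change them.

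Nono and Tbp were not shown to part. Their within-array difference was 3.44, 3.32 and 3.53 log2 on fetal arrays, 3.63, 3.53 and 3.53 on adult arrays, and 3.54, 3.12 and 3.11 on tumour arrays. The tumours reached from below the fetal values into the adult ones, while the highest fetal value, 3.526, lay just under the lowest adult value, 3.530. Against adult liver it differed by -0.14 in fetal liver and by -0.31 in liver cancer (exact permutation test, adjusted p = 0.107). A p that misses the threshold does not show that the 2 genes changed alike. Without liver cancer replicate 1 the same test passed (adjusted p = 0.00357, exact permutation test), as both tumours of the second scan had lower values than all other arrays.

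**Figure D4:**
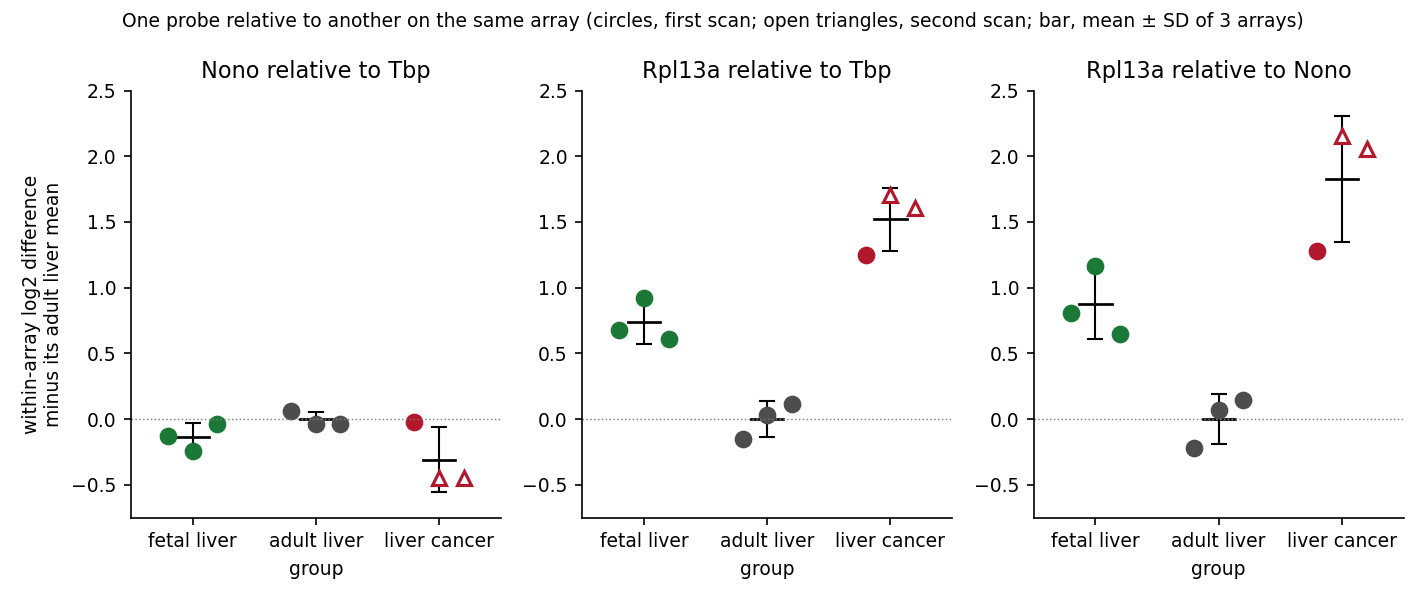
Within-array log2 difference between 2 probes, minus its adult liver mean (y axis), for each array by group, with the mean and SD of 3 arrays; circles are the first scan and open triangles the second. Rpl13a relative to Tbp and to Nono rises from adult liver to fetal liver to liver cancer with no overlap, reaching 1.52 and 1.83, while Nono relative to Tbp lies between -0.45 and 0.07 on every array.

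The other named probes were compared with the 3 genes by their profile over the 9 arrays, each centred on its own mean. The measure was the root mean square difference in log2 units, and all profiles share the arrays, their scaling and the scans. Closest to Tbp was Hsp90ab1, a cytosolic chaperone of the HSP90 class, at 0.124, and next was Nono at 0.179. Closest to Nono was again Hsp90ab1, at 0.130, with Tbp next. Of the 33243 other tested probes measured on every array, 0 lay closer to Nono than Hsp90ab1 did, and 15 lay closer to Tbp. Named probes are means of up to 20 spots, whereas nearly all other probes are single spots, whose noise adds to their distance. These counts therefore favour named probes and do not show that Hsp90ab1 is closer than other genes are.

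Rpl13a had other neighbours. The nearest named probe was Actb, cytoplasmic actin, at 0.240, followed by G6pd2, a relative of the glucose-6-phosphate dehydrogenase gene, at 0.330. This likeness was looser in distance than that of Hsp90ab1 to Tbp or Nono. Closer to Rpl13a than Actb lay 187 of the other tested probes, a count with the same limit. Over fetal liver, adult liver and liver cancer, mean levels of Hsp90ab1 were 7.43, 6.34 and 5.04, the order of Tbp and Nono, whereas those of Actb were 8.85, 7.31 and 7.87, the order of Rpl13a. Actb, G6pd2 and Hsp90ab1 also belong to families with near-identical copies.

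**Figure D5:**
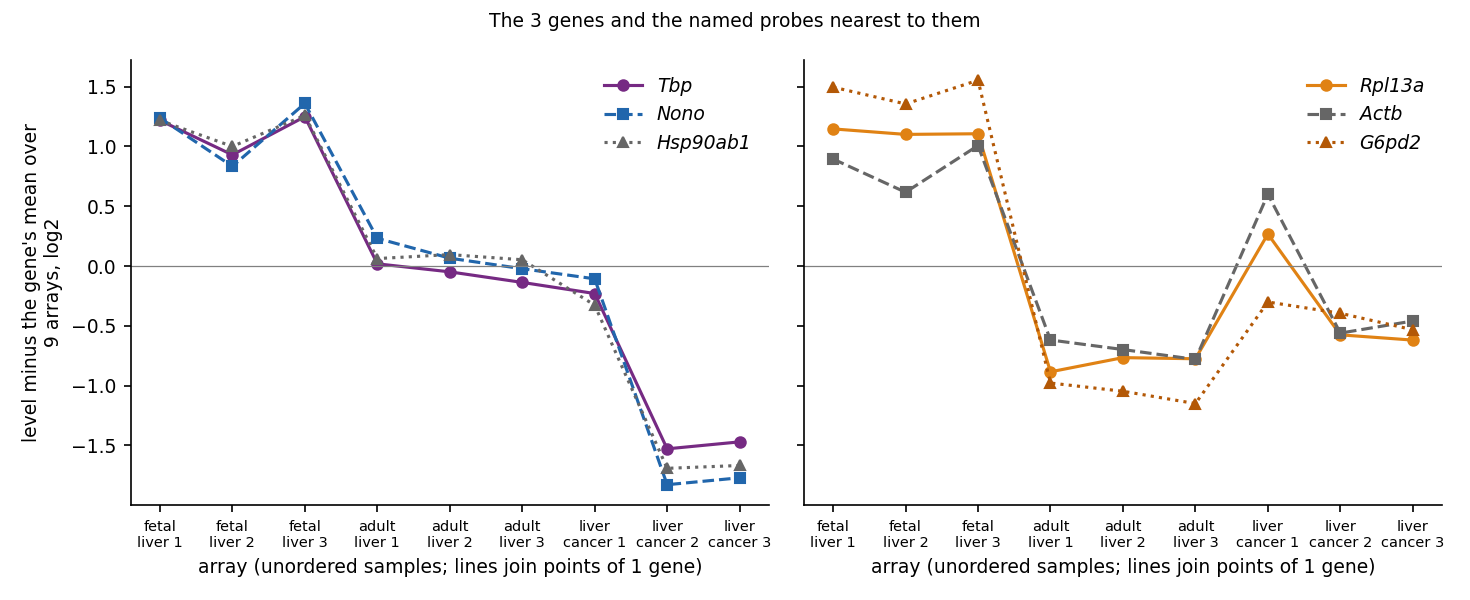
Level of each gene minus its own mean over the 9 arrays (y axis, log2) for Tbp, Nono and their nearest named probe Hsp90ab1 (left), and for Rpl13a with Actb and G6pd2 (right); lines join the points of 1 gene and imply no order of samples. Tbp, Nono and Hsp90ab1 are highest in fetal liver and lowest on the tumours of the second scan (on this scale; against adult liver Tbp and Nono turn when scaled to the median of the other 12 named probes), while Rpl13a, Actb and G6pd2 are lowest in adult liver.

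Other genes of the same machinery could not be followed. From lists of 26 genes of the general transcription apparatus, 7 of paraspeckles and the DBHS family, and 85 ribosomal protein genes, 1 each had a named probe, namely Tbp, Nono and Rpl13a themselves. Among the other 12 named genes, 5 were called higher and 3 lower in fetal than in adult liver. Of all tested probes 21.2% were called higher there and 18.4% lower. The median difference of the 12 was 0.27, against -0.02 over all tested probes. In liver cancer against adult liver 1 of the 12 was called higher and 1 lower (median -0.31, against 0.01 over all tested probes). The shares of all tested probes there were 11.6% higher and 12.5% lower. In liver cancer against fetal liver 3 were called higher, as were 20.4% of all tested probes, and 5 lower, as were 22% (median -0.69, against 0.05).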

How the data were processed

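The intensity values deposited by the authors are processed signals of Agilent Feature Extraction 11.0.1.1, per the file headers: background is subtracted within an array, and arrays are not scaled to each other. Deposited median signals of spot and background were used for the normexp alternative (offset 50). Outlier-marked spots were left out, the rest averaged per probe on the log2 scale, and the 75th percentile of each array subtracted. The 34103 probes well above background on at least 3 of 9 arrays, with 2 usable arrays per group, were fitted over all arrays with limma 3.58.1 in R 4.3.3, with Benjamini-Hochberg adjustment. A call needed at least a 2-fold change with an adjusted p below 0.05. Pairs of probes were compared with exact permutation tests of the F ratio. Procedures were tested on simulated data. The 3 genes were named by rule, with the 2 named probes nearest to each. Members and lists were chosen with earlier results of these data known. Alternatives comprised scaling, background correction, spot summary, filters, scan, replicate number, variance model, minimum fold, pairs of groups and each array left out; the mean of the other named probes and no scaling were chosen after seeing the data. The second scan holds liver cancer alone, so a block for scan, like the fit within the first scan, rests on liver cancer replicate 1, assumed to vary like the other groups. All 15 accessions matched a symbol in RefSeq GRCm38.p6; probe sequences and probe positions were not used here.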

Additional observations from a re-analysis of the deposited data

How the results depend on the processing

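Of the 9 differences between groups, those of Tbp and Nono between liver cancer and fetal liver kept their call under all 26 alternatives; most other losses lie between liver cancer and adult liver. Within the first scan, and with scan as a block (both rest on 1 tumour array, with the spread of fetal and adult arrays), Tbp and Nono against adult liver lay at -0.17 and -0.20 without a call, Rpl13a at 1.08 with one, and Rpl13a against fetal liver at -0.85 without; Nono in fetal against adult liver was called at 1.05, as with the arrays of 2 groups only, where Tbp (-1.02) and Nono (-1.33) in liver cancer against adult liver were not. Scaling to the median of the other 12 named probes, which falls between different probes on different arrays, gave -0.53 for Tbp, -0.67 for Nono and 0.20 for Rpl13a in fetal against adult liver, and -0.28 and -0.48 for Rpl13a in liver cancer against adult and fetal liver. It moved the median of all tested probes to -1.74, -0.76 and 0.99 in fetal against adult liver, liver cancer against adult liver and liver cancer against fetal liver. With no scaling these medians were 0.57, 1.21 and 0.66, Nono in fetal against adult liver was called (1.64), Tbp, Nono and Rpl13a in liver cancer against adult liver were at 0.18, -0.13 and 1.70, and Rpl13a against fetal liver at -0.82. The mean of the other 12 gave 0.85 for Tbp in fetal against adult liver, the array median 1.13, and the 75th percentile of bright probes called Nono there (1.10) and left Tbp in liver cancer against adult liver at -0.93. Normexp gave -0.56, -0.76 and 1.10 for Tbp, Nono and Rpl13a in liver cancer against adult liver and -0.79 for Rpl13a against fetal liver; its offset shrinks dim signals. Tbp in liver cancer against adult liver also lost its call with the median over spots (-0.996), with marked spots kept (-0.99) and with no filter (-1.02), and Nono with no filter (-1.33). The cause of these changes was not tested.

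Leaving out 1 array in turn gave 1.13 to 1.29 for Tbp and 0.94 to 1.21 for Nono in fetal against adult liver, and -1.44 to -0.79 and -1.89 to -1.03 in liver cancer against adult liver; adjusted permutation p-values for Nono against Tbp were 0.00357 to 0.286. Same-numbered deviations correlated at -0.165 to 0.309 between groups. Arrays of unlike number were not compared in this way, so pairing by replicate number was not settled. With the replicate block Tbp was at 1.19, Nono at 1.05 and Rpl13a at 1.93 in fetal against adult liver. No call of the 3 genes changed, and 13584 probes were called in that comparison against 13489.

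Called probes in fetal against adult liver (13489) numbered 24344 with the median of the other 12, 8911 with no scaling, 5949 with normexp and 7189 among probes bright on all arrays. In liver cancer against adult liver (8205) they numbered 13115 with the median of the other 12 and 4558 among probes bright on all arrays (well above background on each), and in liver cancer against fetal liver (14462) 8608 with no scaling and 7846 among probes bright on all arrays. The share of calls that were higher, 53.5%, 48.2% and 48.1% in these comparisons, became 7.17%, 7.75% and 80.2% with the median of the other 12, 38.7%, 37.8% and 58.5% with their mean, and 72.5%, 92.9% and 65.6% with no scaling; for liver cancer against adult liver it was 33.1% with the array median.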

Other observations

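Outlier marks fell unevenly on the spots of Rpl13a: 8 of 20 were marked on fetal liver replicate 3 and 5 on replicate 1, against 0 on fetal replicate 2. The 12 unmarked spots of replicate 3 gave 6.94, within 0.046 log2 of both other fetal arrays, and keeping the marked spots changed no call of Rpl13a.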
